A study of Mus musculus with 24 samples.

Results

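Chromatin accessibility was examined at 10 collagen genes in mouse embryonic stem cells with and without the signalling factor Smad2. The members were all intervals of the deposited accessibility tables that overlapped the body of Col1a1, Col1a2, Col3a1, Col4a1, Col4a2, Col5a1, Col6a1, Col12a1, Col13a1 or Col18a1, extended by 20 kb on each side. They numbered 248 of 299780 intervals without inhibitor and 240 of 272268 with it, and every one was 201 bases wide. The genes were chosen by their accessibility values in these data: an interval at Col13a1 without inhibitor and one at Col4a2 with inhibitor were among the largest gains in the knockouts. Those values, and all others at Col13a1 in the first table and at Col4a1 and Col4a2 in the second, are therefore given as descriptions without a test.

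The assay was ATAC-seq, in which the Tn5 transposase cuts accessible DNA in isolated nuclei. All cells derived from E14, an embryonic stem cell line, and grew on gelatin in serum medium containing leukemia inhibitory factor. Cells without a Smad2 mutation (WT) were set against the Smad2 knockouts named Smad2_KO1 and Smad2_KO2, each line being either untreated (Ctrl) or exposed for 12 hours to 200 nM INK128, an inhibitor of mTOR (Paused). Each of the 6 groups held 4 libraries, 24 in all. The labels do not say how the knockouts were made, whether the lines are single clones, or whether replicates were separate cultures, so p-values measure the spread between libraries, which may be technical. Accessibility is not transcription, and in a bulk library fewer cells with an open site and a less open site in each cell cannot be told apart.

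Collagens are triple-helical proteins of the extracellular matrix. Types I, III and V assemble into fibrils, type IV forms the network of basement membranes, and type XVIII is a proteoglycan of that layer. Type VI makes beaded microfilaments, type XII binds to fibril surfaces, and type XIII spans the cell membrane. Smad2 carries signals of Nodal, activin and TGF-beta receptors to the nucleus, and TGF-beta is a classical inducer of fibrillar collagen genes in fibroblasts. Embryonic stem cells are not a cell type known for making fibrillar matrix, whereas type IV collagen belongs to the first basement membranes of the embryo.

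The intervals of a library held between 11456986 and 20007829 reads. At the targeted gene, Smad2, the summed window was 491 to 562 normalized reads in WT, 529 to 619 in Smad2_KO1 and 522 to 554 in Smad2_KO2 (Ctrl), and 575 to 767, 679 to 719 and 665 to 707 in Paused. No interval in the gene body was at 0 in a knockout line, so accessibility alone does not check the knockout label. Libraries of different knockout lines with the same replicate number were close: a chi-square per degree of freedom of recovered reads was 1.00 to 1.27 over 8 such pairs, against 1.10 to 1.53 over 24 pairs with different numbers. Pairs within 1 knockout line gave 1.11 to 1.48 over 24 pairs. Both knockout lines were also compared with the same WT libraries, so a call in both lines is not made of independent results. In Paused, replicate 2 of both knockout lines differed by less than the sampling noise (chi-square per degree of freedom 1.0013, where sampling noise allows up to 1.0055). The labels call them different lines, so both were kept, and counts without either follow below. Stem cell, endoderm, mesenchyme and trophoblast marker lists of 8 genes each had no gene at 0 in any list. The summed stem cell markers lay between 12238 and 14162 normalized reads in Ctrl and between 13694 and 15662 in Paused, with WT and knockout ranges overlapping. Endoderm markers summed to 4068 to 4773 and 5002 to 5872, and fibroblast or mesenchyme markers to 2625 to 2889 and 2930 to 3392. At least 1 marker of each list was called in both lines in 1 table or the other, at most 3 per list and table. Of all gene windows, 8.39% were called in Ctrl and 27.2% in Paused. Trophoblast markers did not overlap between WT and knockouts, at 7126 to 7631 against 6713 to 7054 in Ctrl and 8005 to 8991 against 7612 to 7988 in Paused, and their part in the collagen results was not tested. Among single gene windows, 6.29% in Ctrl and 14% in Paused had all knockout libraries below all WT libraries. No such share was computed for sums of several genes.

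Intervals at the annotated starts of 8 collagen genes were compared first. No start of Col1a1 or Col12a1 was analysed here. Values are normalized reads: the reads of an interval, divided by a factor that is constant within a library, so that 1 read was worth 0.75 to 1.32 of them. In each treatment 6 intervals lay within 1000 bases of a start of these 8 genes, and 0 of them were called in both knockout lines. A call means an adjusted p under 0.05 against WT in each knockout line with the same sign (limma, Benjamini-Hochberg over all tested intervals). The share of all tested intervals called in this way was 7.15% in Ctrl and 13.9% in Paused. Of the 8, Col13a1 and Col3a1 had no analysed interval within 1000 bases of their start. The 250 bases before a start show how unlike these promoters are, and they are given for the gene with the strongest start interval, for these 2 genes, and for the upstream start of Col18a1. Sequences are from RefSeq (GRCm38.p6), on the gene's strand. Capitals mark, on both strands, the CCAAT box (CCAAT), the GC box (GGGCGG), the TATA box (TATAAA) and the Smad-binding letters CAGAC.
Col5a1, chr2:27886175-27886424: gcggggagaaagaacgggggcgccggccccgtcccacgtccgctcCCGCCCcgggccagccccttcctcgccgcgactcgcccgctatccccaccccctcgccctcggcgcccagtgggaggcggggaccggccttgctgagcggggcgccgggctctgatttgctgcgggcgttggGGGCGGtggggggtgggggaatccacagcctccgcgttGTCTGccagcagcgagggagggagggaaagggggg
Col3a1, chr1:45311288-45311537: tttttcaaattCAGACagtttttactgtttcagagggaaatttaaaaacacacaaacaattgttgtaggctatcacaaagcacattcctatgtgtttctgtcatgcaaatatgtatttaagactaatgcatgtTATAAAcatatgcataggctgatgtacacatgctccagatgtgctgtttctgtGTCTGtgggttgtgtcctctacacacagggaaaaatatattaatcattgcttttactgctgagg
Col13a1, chr10:61979109-61979358: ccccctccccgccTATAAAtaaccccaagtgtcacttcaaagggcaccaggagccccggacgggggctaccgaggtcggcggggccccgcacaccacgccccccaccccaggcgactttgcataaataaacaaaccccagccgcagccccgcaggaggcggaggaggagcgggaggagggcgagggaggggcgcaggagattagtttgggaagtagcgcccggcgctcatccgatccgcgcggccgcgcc
Col18a1, chr10:77166531-77166780: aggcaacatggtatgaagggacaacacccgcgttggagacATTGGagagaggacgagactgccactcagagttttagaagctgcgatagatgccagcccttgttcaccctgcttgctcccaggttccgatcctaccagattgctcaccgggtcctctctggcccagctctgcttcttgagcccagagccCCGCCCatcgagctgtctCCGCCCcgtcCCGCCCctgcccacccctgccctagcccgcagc
The G and C content was 76.4% for Col5a1, 35.2% for Col3a1, 68.8% for Col13a1 and 62% for the Col18a1 stretch, against a median of 52.4% over 32851 promoters of the same length. CAGAC was present 2 times for Col3a1, 1 time for Col5a1, and 0 times in the Col13a1 and Col18a1 stretches, and 42.2% of all promoters hold it. TATAAA was present in Col3a1 and Col13a1, against 12.4% of promoters. CCAAT (33.8% of promoters) was found in the Col18a1 stretch alone of these 4, and GGGCGG (32.7%) in Col5a1 and Col18a1.

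The Col5a1 start interval (chr2:27886206-27886406) was the strongest of that gene's window. In Ctrl it held 307, 263, 235 and 338 normalized reads in the WT libraries, 231, 198, 246 and 256 in those of Smad2_KO1 and 256, 234, 287 and 281 in those of Smad2_KO2. The groups overlapped, and limma's adjusted p was 0.0583 and 0.574 for the knockout lines in turn. In Paused the start interval held 303 to 464 in WT and 292 to 369 over the knockouts, again with overlap (limma adjusted p 0.197 and 0.136).

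Col4a1 and Col4a2, the chains of the main type IV collagen, are transcribed away from each other, and the stretch that holds both annotated starts is 22 bases long. It is shown on the Col4a2 strand because 1 interval covers both starts, with capitals as above.
chr8:11312805-11312826: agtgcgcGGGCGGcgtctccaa
The interval over it (chr8:11312713-11312913 in Ctrl) held 164, 168, 149 and 177 normalized reads in the WT libraries, 182, 127, 213 and 189 in those of Smad2_KO1 and 150.3, 137, 154 and 182 in those of Smad2_KO2. In Paused it held 188 to 246 in WT and 197 to 224 over the knockouts. WT and knockouts overlapped in both tables, and in Ctrl the adjusted p (limma) was 0.674 and 0.724. The start of Col6a1 lay under a weaker interval, with 47.8 ± 8.98 normalized reads in WT and 52.6 ± 9.27 and 45.9 ± 5.29 in the knockouts (Ctrl, SD, n = 4), and its adjusted p was 0.65 and 0.899 (limma). The start interval of Col1a2 held 38.8 to 61.3 in WT and 48.5 to 54.1 in the knockouts (Ctrl, limma adjusted p 0.992 and 0.804). The upstream Col18a1 start lay under a stronger one, with 231 to 295 in WT and 203 to 287 in the knockouts (Ctrl, limma adjusted p 0.315 and 0.8).

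Away from the starts analysed here, some collagen intervals differed between knockout and WT cells. Of 235 tested collagen intervals in Ctrl, 19 were higher and 8 lower in both knockout lines, where 3.95% and 3.2% of all tested intervals were. Of 233 tested in Paused, 19 were higher and 9 lower, against 9.01% and 4.92%. Against WT alone, 41 intervals were called for Smad2_KO1 and 41 for Smad2_KO2 in Ctrl (11.6% and 10.7% of all tested), and 46 and 45 in Paused (19.4% and 19.3%). All 8 knockout libraries lay above all 4 WT libraries at 16 collagen intervals and below at 8 in Ctrl (4.16% and 3.32% of all tested), and at 17 and 8 in Paused (7.25% and 4.2%). These counts include the genes that led to the choice, so nothing is read from them. With Col13a1 left out of Ctrl, 12 were higher and 8 lower of 191. With Col4a1 and Col4a2 left out of Paused, 10 were higher and 9 lower of 172. No collagen interval differed between the knockout lines at an adjusted p under 0.05 by limma, edgeR or DESeq2, and 5 in each table did at an unadjusted p under 0.05 by limma (3.28% and 1.97% of all tested), with 9 and 6 by edgeR and 1 and 2 by DESeq2. In Paused, 22 intervals were called in both lines without replicate 2 of Smad2_KO1 and 23 without replicate 2 of Smad2_KO2.

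Direction depended on scaling. The median log2 fold change over all tested intervals was 0.077 in Ctrl and 0.115 in Paused with the authors' scaling, and 0.006 and 0.012 with size factors recomputed by DESeq2's method, a shift of the whole table. Under those factors the collagen split was 10 higher to 11 lower in Ctrl and 13 to 18 in Paused. With library totals it was 20 to 8 and 24 to 8, and with loess offsets along the mean level 13 to 12 and 15 to 9. These settings in turn called 21472, 21457 and 18228 of all 282089 tested intervals in Ctrl. In Paused they called 38518, 38306 and 25028 of 260539. The higher share of all these calls was 36.7%, 57.9% and 40.5% in Ctrl and 40.0%, 71.3% and 47.8% in Paused. On recovered reads edgeR called 10 higher and 16 lower in Ctrl and 13 and 20 in Paused, and DESeq2 3 and 8, and 10 and 13. Over all intervals edgeR called 7325 higher and 14652 lower in Ctrl and 14339 and 23509 in Paused. DESeq2 called 2599 and 8851, and 6220 and 16949. Fold changes also followed level: the median of all tested intervals fell from 0.23 in the lowest decile to -0.07 in the highest decile in Ctrl, and from 0.36 to -0.14 in Paused. Collagen medians in those deciles were 0.3 and -0.06, and 0.5 and -0.19.

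**Figure D1:**
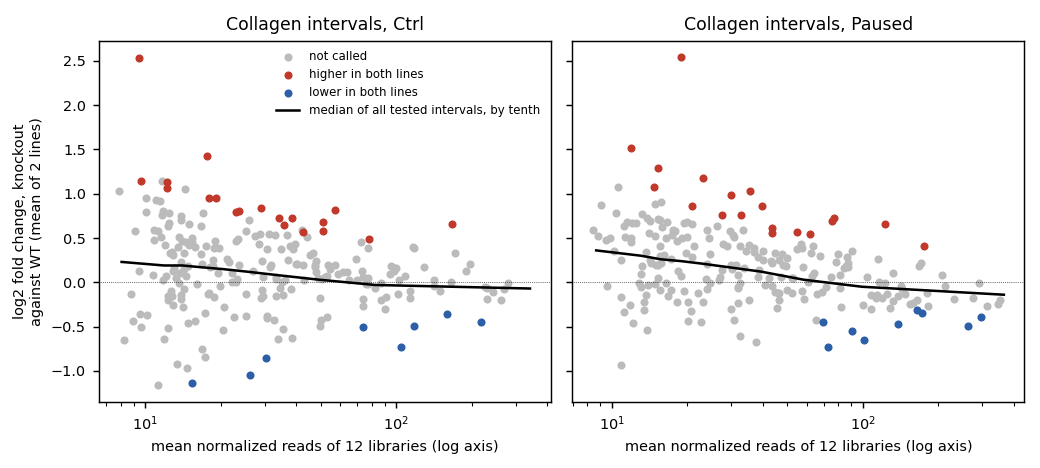
Log2 fold change of knockout against WT (mean of the 2 lines) for each tested collagen interval, against its mean normalized reads over 12 libraries on a log axis, in Ctrl (left) and Paused (right). Red and blue points were called higher and lower in both lines, grey points were not, and the black line is the median of all tested intervals by decile of level, which falls from 0.23 to -0.07 and from 0.36 to -0.14.

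Among the fibril-forming collagens, Col1a1 and Col1a2, which encode the chains of type I collagen, each had called intervals, and Col3a1 had none. At Col1a1, 2 intervals were higher and 1 lower of 17 in Ctrl, and 3 higher and 1 lower of 14 in Paused. For this gene and those below, the shares over all tested intervals were 3.95% higher and 3.2% lower in Ctrl. In Paused they were 9.01% and 4.92%. An interval inside the gene (chr11:94950914-94951114) held 20.5, 30.1, 20.5 and 13.2 normalized reads in the WT libraries under INK128, 39.9, 45.3, 38.9 and 31.8 in those of Smad2_KO1 and 45.9, 43.5, 49.4 and 47.0 in those of Smad2_KO2. Every knockout library lay above every WT library. The log2 fold changes, here and below for Smad2_KO1 and Smad2_KO2 in turn and on the log2(value + 1) scale, were 0.90 and 1.16 (limma, SE 0.196, n = 4 against 4, adjusted p 0.00118 and 6.74e-05). The same site in Ctrl held 15.3 ± 3.88 in WT libraries, 25.0 ± 5.69 in Smad2_KO1 ones and 30.3 ± 7.90 in Smad2_KO2 ones (SD, n = 4). That call had adjusted p values of 0.0475 and 0.00536 (limma), and it was lost in 16 of 25 alternative analyses (other scalings, filters and tests, and each library left out in turn).

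A second Col1a1 site, in the flank (chr11:94929722-94929922), rose in Paused from 88.9 ± 15.2 in WT to 141 ± 8.10 in Smad2_KO1 and 139 ± 7.40 in Smad2_KO2 (SD, n = 4, limma adjusted p 0.000111 and 0.000167). It kept that call in all 25 alternatives. In Ctrl the same site was 38.4 ± 4.69, 55.2 ± 6.14 and 60.4 ± 5.61, and that call was lost in 7 of 25. Moving the other way, a flanking interval (chr11:94933683-94933883) held 38.5, 34.9, 41.6 and 60.4 in WT libraries, 24.8, 19.5, 23.4 and 20.8 in Smad2_KO1 ones and 29.1, 29.1, 18.1 and 23.1 in Smad2_KO2 ones in Ctrl. It fell by 0.93 and 0.79 on the log2 scale (limma, SE 0.203, adjusted p 0.00147 and 0.00741), and the adjusted p rose to 0.0618 without WT replicate 4. Its counterpart in Paused was not called in both lines. The strongest interval in the gene body in Paused (chr11:94937093-94937293) has its centre 969 bases inside the end of the body with the lower coordinate. Whether that end holds the start of Col1a1 was not analysed, so this interval may lie near a start. The interval held 214, 190.0, 186 and 215 normalized reads in WT libraries, 174, 140.5, 167 and 142 in Smad2_KO1 ones and 159, 135, 172 and 173 in Smad2_KO2 ones. Every knockout library lay below every WT library, by 0.37 and 0.33 on the log2 scale (limma, SE 0.106, adjusted p 0.0123 and 0.0229). That call was lost in 6 of 25 alternatives, among them those without WT replicate 1 or 4, Smad2_KO1 replicate 2 or Smad2_KO2 replicate 2 (adjusted p 0.0582 to 0.123). In Ctrl the overlapping interval was 122 ± 8.39, 107 ± 8.60 and 110.2 ± 13.5 and was not called (SD, n = 4, limma adjusted p 0.316 and 0.453). The genes Sgca and Hils1 also lie in the Col1a1 window.

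At Col1a2, 1 of 12 tested intervals in Ctrl and 1 of 11 in Paused were called, and both calls fell on the same site beyond the gene's end. In Ctrl (chr6:4550611-4550811) it held 146, 123, 153 and 162 normalized reads in the WT libraries, 113, 97.7, 109 and 90.1 in those of Smad2_KO1 and 114, 113, 102 and 90.6 in those of Smad2_KO2. In Paused (chr6:4550607-4550807) it held 119.8, 137, 129 and 148 in WT libraries, 99.8, 81.6, 76.9 and 93.4 in Smad2_KO1 ones and 80.9, 70.5, 79.7 and 99.5 in Smad2_KO2 ones. WT did not overlap either knockout line in either table. The log2 fold changes were -0.51 and -0.47 in Ctrl (limma, SE 0.122, adjusted p 0.0038 and 0.00751) and -0.60 and -0.69 in Paused (SE 0.126, adjusted p 0.000787 and 0.00017). Both calls held in all 25 alternatives of their table.

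Col3a1, which makes the homotrimeric fibrils found beside type I collagen, had only 2 tested intervals in Ctrl and 3 in Paused, and 0 were called. The strongest, beyond the gene's end, held 224, 245, 227 and 231 normalized reads in the WT libraries, 227, 191, 228 and 263 in those of Smad2_KO1 and 218, 192, 222 and 249 in those of Smad2_KO2 (Ctrl). The groups overlapped (limma adjusted p 0.857 and 0.679). Col5a1, a regulator of fibril diameter, had 2 called higher of 15 in Ctrl and 0 of 15 in Paused. The Ctrl interval with the largest change (chr2:27897373-27897573) held 9.61, 8.06, 7.67 and 2.16 in WT libraries, 23.1, 8.22, 21.6 and 9.24 in Smad2_KO1 ones and 17.0, 10.0, 13.8 and 16.1 in Smad2_KO2 ones. Its values overlapped between WT and Smad2_KO1, its adjusted p values were 0.0377 and 0.0412 (limma), and the call was lost in 12 of 25 alternatives. Every WT library was under the filter value of 10 at this interval, so it was tested only through knockout libraries. The other, near the far end of the gene (chr2:28031944-28032144), rose from 36.6 ± 7.75 to 57.6 ± 6.11 and 59.2 ± 7.59 (SD, n = 4, limma adjusted p 0.0053 and 0.00338), and 1 of 25 alternatives lost it.

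**Figure D2:**
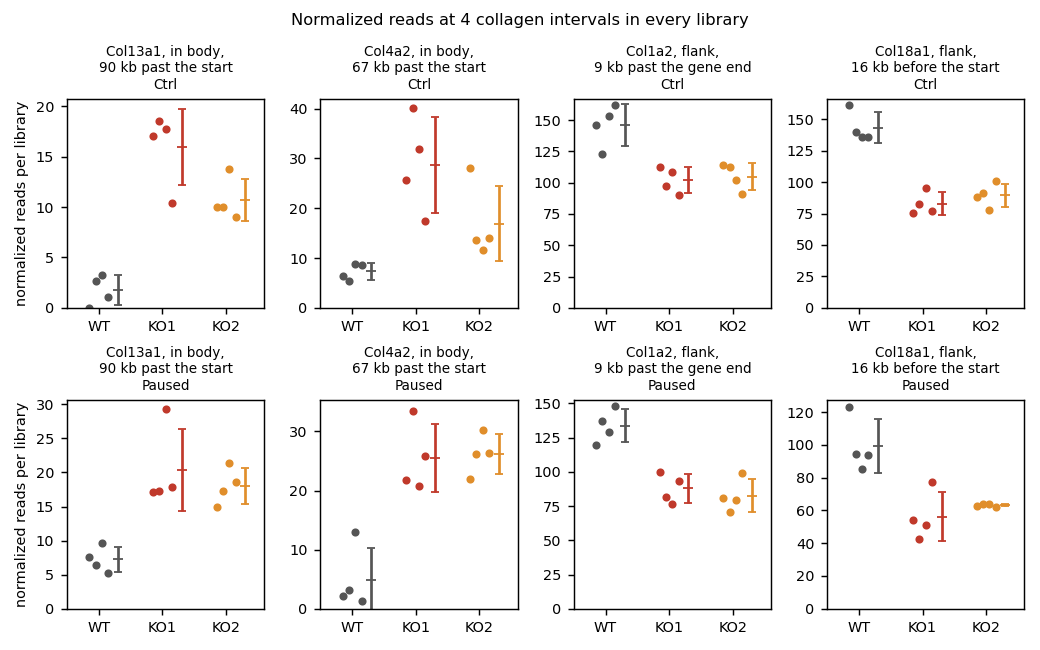
Normalized reads in each library (points, 4 per line) with mean and SD (bars) at 4 collagen intervals, in Ctrl (top) and Paused (bottom), for WT, Smad2_KO1 (KO1) and Smad2_KO2 (KO2). The Col13a1 and Col4a2 intervals are higher in every knockout library (Col4a2 in Paused, WT 1.32 to 13.0 against 20.7 to 33.5), and the Col1a2 and Col18a1 flank intervals are lower.

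The type IV collagen locus showed gains inside Col4a2 in both tables. The interval in Paused that led to the choice of these genes (chr8:11380121-11380321, 67416 bases past the Col4a2 start) held 2.16, 3.22, 12.9 and 1.32 normalized reads in the WT libraries, 21.9, 33.5, 20.7 and 25.8 in those of Smad2_KO1 and 22.0, 26.2, 30.3 and 26.3 in those of Smad2_KO2. All knockout libraries were above all WT libraries, and WT replicate 3 stood well above the other WT libraries. The Ctrl libraries were not used for that choice, but they come from the same lines. There the same site (chr8:11380127-11380327) held 6.41, 5.37, 8.76 and 8.63 in WT libraries, 25.6, 40.1, 31.9 and 17.3 in Smad2_KO1 ones and 28.1, 13.7, 11.7 and 14.1 in Smad2_KO2 ones. Again no knockout library reached down to WT. The log2 fold changes were 1.80 and 1.05 (limma, SE 0.284, adjusted p 1.87e-05 and 0.0109). Without Smad2_KO2 replicate 1 the larger adjusted p was 0.101, and by DESeq2 on recovered reads it was 0.0585. At this site every WT library in Ctrl was under the filter value of 10, so it was tested only through knockout libraries. Nothing is read from that test.

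Of the further Col4a2 sites called higher in Ctrl, 2 are given here with their Paused values, which are a description. The first (chr8:11340431-11340631) held 23.5 ± 4.11 in WT libraries, 37.2 ± 4.78 in Smad2_KO1 ones and 41.4 ± 4.90 in Smad2_KO2 ones in Ctrl (SD, n = 4, limma adjusted p 0.0157 and 0.00278, lost in 3 of 25 alternatives). In Paused it held 53.1 ± 9.25, 91.2 ± 12.6 and 81.3 ± 13.2. The second (chr8:11346765-11346965) held 11.0 ± 2.12, 26.4 ± 9.44 and 19.9 ± 5.47 in Ctrl (limma adjusted p 0.00329 and 0.0479, lost in 16 of 25) and 12.6 ± 5.94, 28.7 ± 5.56 and 28.3 ± 8.45 in Paused. Across the Ctrl table Col4a2 had 6 higher and 1 lower of 43 tested intervals, against 3.95% and 3.2% of all tested intervals. Col4a1 had 1 higher of 27, which both windows share. That shared interval, inside Col4a1, was 61.5 ± 14.1 in WT and 86.7 ± 12.5 and 85.1 ± 15.7 in the knockouts (SD, n = 4), and its call was lost in 10 of 25 alternatives. The lower one, far inside Col4a2 (chr8:11437850-11438050), fell from 91.9 ± 8.10 to 64.5 ± 7.61 and 64.2 ± 3.43 (limma adjusted p 0.0102 and 0.0106, the larger rising to 0.0515 without Smad2_KO1 replicate 2). In Paused, Col4a2 had 6 higher of 39 and Col4a1 had 4 higher of 29, 1 of them shared, a description only (9.01% of all tested intervals were higher). Of the Col4a2 window's gains, 1 in Ctrl and 2 in Paused lay in the body of the neighbouring gene Rab20.

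Col18a1, which encodes the basement membrane proteoglycan that releases endostatin, had more lower than higher calls. In Ctrl 5 of 59 tested intervals were lower and 1 higher, and in Paused 5 of 57 were lower and 0 higher, against backgrounds of 3.2% and 4.92% lower. A site in the upstream flank (chr10:77182809-77183009, 16379 bases before the upstream start) held 161, 139.7, 136 and 136 normalized reads in the WT libraries, 75.2, 82.2, 95.6 and 77.4 in those of Smad2_KO1 and 88.2, 91.0, 77.5 and 101 in those of Smad2_KO2 (Ctrl). In Paused the same site (chr10:77182787-77182987) held 123, 94.5, 85.2 and 94.0 in WT libraries, 54.2, 42.6, 51.0 and 77.5 in Smad2_KO1 ones and 62.9, 63.7, 64.0 and 62.4 in Smad2_KO2 ones. Knockout and WT values were separate in both tables. The log2 fold changes were -0.79 and -0.68 in Ctrl (limma, SE 0.125, adjusted p 2e-05 and 0.000195) and -0.83 and -0.63 in Paused (SE 0.15, adjusted p 0.000157 and 0.00292).

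A strong interval between the annotated Col18a1 starts (chr10:77131597-77131797) fell from 266 ± 23.2 in WT to 197 ± 24.8 in Smad2_KO1 and 194 ± 12.1 in Smad2_KO2 in Ctrl (SD, n = 4, limma adjusted p 0.00294 and 0.00231). Its Paused counterpart fell from 326 ± 7.40 to 233 ± 9.00 and 232 ± 18.2 (adjusted p 0.000164 and 0.000127). Both these sites kept their calls in all 25 alternatives of each table. A called interval inside the gene (chr10:77111404-77111604, 2201 bases past the downstream start) had the largest fall in Ctrl when intervals are ranked by the smaller change of the 2 lines. It held 34.2, 30.4, 43.8 and 50.7 in WT libraries, 8.55, 25.7, 17.8 and 25.4 in Smad2_KO1 ones and 18.0, 28.2, 13.8 and 18.1 in Smad2_KO2 ones. It fell by 1.08 and 1.01 on the log2 scale (limma, SE 0.248, adjusted p 0.00241 and 0.00512). In Paused the overlapping interval was not called, at 23.9 ± 7.97, 21.9 ± 4.42 and 20.3 ± 1.89, and the difference between treatments was not tested. Another called interval (chr10:77142422-77142622) fell further on average, by 1.28 and 0.99 (limma, SE 0.285, adjusted p 0.00178 and 0.0173), from 25.1 ± 10.5 to 9.30 ± 2.03 and 11.6 ± 2.10 (SD, n = 4). That call was lost without WT replicate 4 (adjusted p 0.135) or Smad2_KO2 replicate 3 (0.0658). The 1 higher call in Ctrl (chr10:77149362-77149562) had 18.7 ± 3.76 in WT libraries, 34.3 ± 4.73 in Smad2_KO1 ones and 33.9 ± 6.54 in Smad2_KO2 ones (limma adjusted p 0.00346 and 0.00471), and all 25 alternatives kept it. The strongest interval of the window lay in the neighbouring gene Slc19a1 and was not called.

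**Figure D3:**
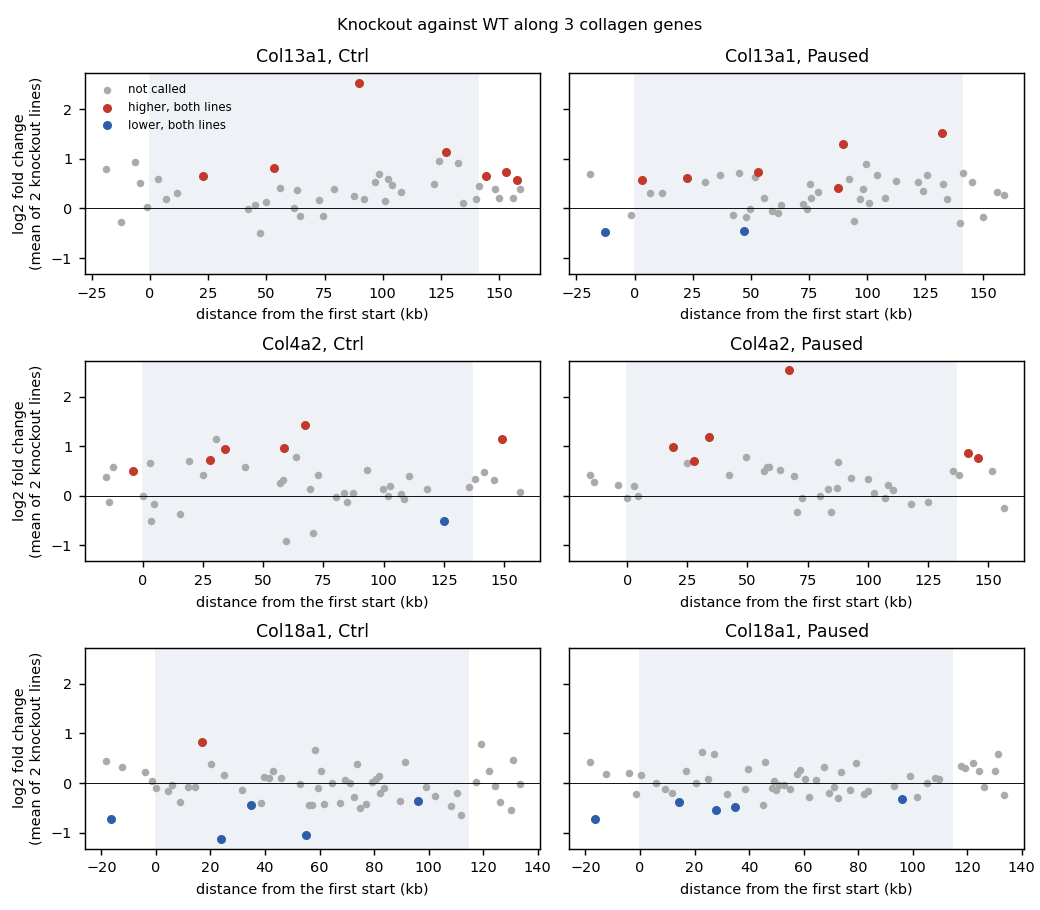
Log2 fold change of knockout against WT (mean of the 2 lines) for tested intervals along Col13a1, Col4a2 and Col18a1, by distance from the most upstream start in kb, with the gene body shaded, in Ctrl (left) and Paused (right). Red and blue points were called higher and lower in both lines, and no called point lies at a start. Col18a1 carries 5 lower intervals in each table and 1 higher in Ctrl.

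Col6a1, a chain of the microfilament collagen, had 1 of 8 tested intervals called in Ctrl and 1 of 10 in Paused, both higher and both in its upstream flank. In Ctrl (chr10:76744335-76744535) the values were 15.8 ± 5.60 in WT libraries, 25.0 ± 1.97 in Smad2_KO1 ones and 28.5 ± 2.93 in Smad2_KO2 ones, and in Paused 32.3 ± 1.48, 50.9 ± 9.04 and 47.1 ± 12.0 (SD, n = 4). The limma adjusted p values were 0.0378 and 0.00834 in Ctrl and 0.0119 and 0.0459 in Paused. These calls were lost in 11 and 16 of 25 alternatives. Col12a1, a collagen of fibril surfaces, had 0 of 18 and 0 of 14 called in both lines. Its strongest interval in Ctrl (chr9:79617520-79617720) held 233, 262, 262 and 245 in WT libraries, 226, 230.3, 265 and 217 in Smad2_KO1 ones and 218, 218, 175 and 216 in Smad2_KO2 ones (limma adjusted p 0.575 and 0.06).

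At Col13a1, the transmembrane collagen, the interval that led to the choice lies inside the gene, 89758 bases past the start (chr10:61889250-61889450). In Ctrl it held 0, 2.69, 3.29 and 1.08 normalized reads in the WT libraries, 17.1, 18.5, 17.8 and 10.4 in those of Smad2_KO1 and 10.0, 10.0, 13.8 and 9.06 in those of Smad2_KO2. Every knockout library was above every WT library, at a level of few reads. The Paused libraries were not used for the choice, but they come from the same lines. There the overlapping interval (chr10:61889200-61889400) held 7.56, 6.44, 9.71 and 5.30 in WT libraries, 17.1, 17.2, 29.4 and 17.9 in Smad2_KO1 ones and 15.0, 17.2, 21.3 and 18.6 in Smad2_KO2 ones. The groups were separate there too, with log2 fold changes of 1.36 and 1.22 (limma, SE 0.278, adjusted p 0.000588 and 0.00185) and a call in all 25 alternatives. Every WT library was under the filter value of 10 at this interval, so it was tested only through knockout libraries. Nothing is read from that test.

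In Paused, Col13a1 had 6 higher and 2 lower of 48 tested intervals, against 9.01% and 4.92% of all intervals. The largest gain (chr10:61846778-61846978) held 1.08, 7.51, 6.47 and 6.62 in WT libraries, 15.2, 17.2, 12.1 and 14.9 in Smad2_KO1 ones and 18.0, 13.5, 15.7 and 15.3 in Smad2_KO2 ones. It rose by 1.48 and 1.55 on the log2 scale (limma, SE 0.354, adjusted p 0.00278 and 0.00186). Here too every WT library was under the filter value of 10, so this interval was tested only through knockout libraries. Nothing is read from that test. A stronger site (chr10:61925807-61926007) rose from 53.0 ± 6.14 to 87.6 ± 10.7 and 89.0 ± 8.82 (SD, n = 4, adjusted p 0.000284 and 0.000195). In Ctrl the same site was 37.5 ± 3.90, 69.7 ± 8.84 and 64.3 ± 6.72. A site in the flank before the start (chr10:61991589-61991789) moved down, from 173, 176, 168 and 163 in WT to 108, 119, 117 and 136 in Smad2_KO1 and 132, 121, 107 and 146 in Smad2_KO2 (limma adjusted p 0.00136 and 0.0051). In Ctrl 7 of 44 Col13a1 intervals were higher and 0 lower, a description only.

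Summed over whole windows, most of the 10 collagen genes had overlapping WT and knockout libraries. In Ctrl, Col13a1 was 2058 ± 178 normalized reads in the WT libraries, 2482 ± 151 in those of Smad2_KO1 and 2529 ± 25.0 in those of Smad2_KO2 (SD, n = 4), given as a description. None of the other windows was called in both lines in Ctrl, where 8.39% of all gene windows were. Col4a2 in Ctrl was 1414 ± 76.9, 1610.4 ± 90.2 and 1556 ± 64.7, with every knockout library above every WT library. Its log2 fold changes were 0.19 and 0.14 (limma, SE 0.053, adjusted p 0.0136 and 0.0762), so only Smad2_KO1 passed. Col18a1 in Ctrl was 3045 ± 116, 2791 ± 78.6 and 2844 ± 37.4, with every knockout library below every WT library and adjusted p values of 0.0536 and 0.147 (limma). In Ctrl all knockout libraries were above all WT libraries at 2 windows (3.39% of all) and below at 1 (6.29%), and in Paused at 1 (4.83%) and 0 (14%).

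In Paused, 1 window was higher and 2 were lower in both lines, where 6.61% of all gene windows were higher and 20.6% lower. The higher one was Col4a2, at 1833 ± 50.2 in WT libraries, 2104 ± 69.8 in Smad2_KO1 ones and 2035 ± 86.7 in Smad2_KO2 ones, a description. Col18a1 fell from 3599.7 ± 137 to 3322 ± 93.8 and 3274 ± 61.6 (limma adjusted p 0.0145 and 0.00381), and Col1a2 from 574 ± 36.8 to 506 ± 34.4 and 509.9 ± 13.5 (0.0235 and 0.0332). With loess offsets neither call held (limma adjusted p 0.19 and 0.0736), and the Col1a2 call was lost with library totals (0.0997) or with the compared groups fitted alone (0.0559). The Col18a1 call was also lost without Smad2_KO1 replicate 2 or 3 (0.0534 and 0.0516), and the Col1a2 call without WT replicate 3 or 4, Smad2_KO1 replicate 3 or 4, or Smad2_KO2 replicate 1, 3 or 4 (0.0543 to 0.111). Col13a1 in Paused was 2821 ± 169, 3009.9 ± 51.0 and 3027 ± 40.2 (limma adjusted p 0.0576 and 0.0366). Its log2 fold change turned to -0.008 under recomputed size factors, which moved the median of all gene windows from -0.05 to -0.157. Under those factors the collagen windows split into 1 higher and 2 lower in Ctrl and 0 higher and 5 lower in Paused. With the same factors 4910 of 20262 gene windows were called in Ctrl and 10477 of 20123 in Paused. Of those calls, 9.35% and 4.79% were higher.

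**Figure D4:**
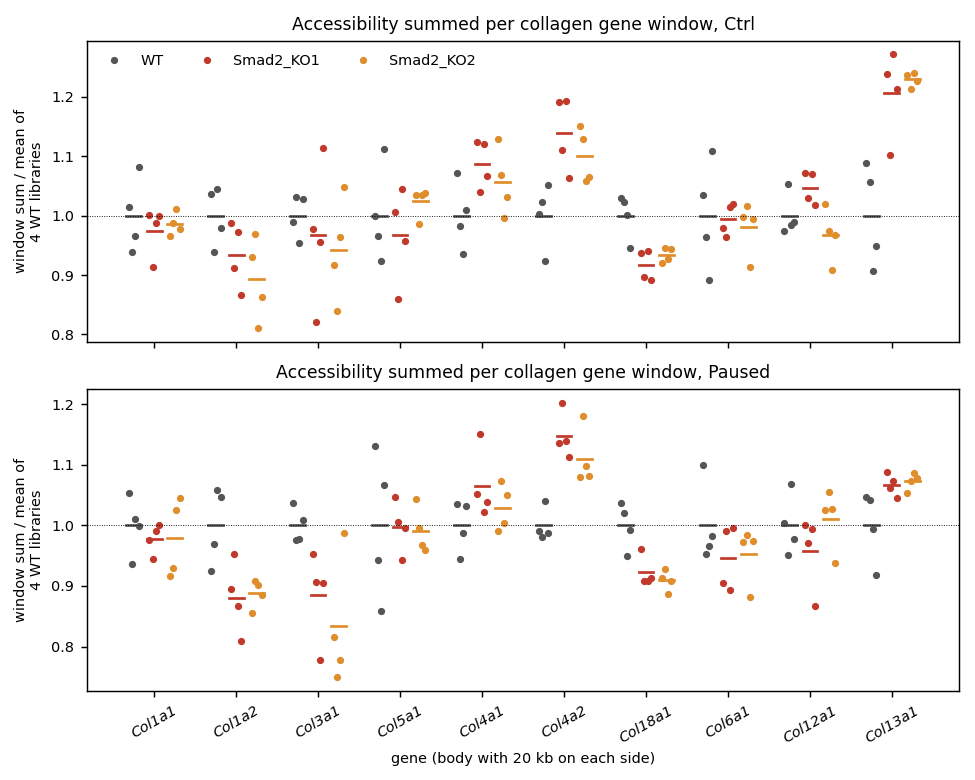
Summed normalized reads of each collagen gene window (gene body with 20 kb on each side) divided by the mean of the 4 WT libraries, in Ctrl (top) and Paused (bottom), with 4 libraries per line as points and their mean as a bar. Col13a1 in Ctrl and Col4a2 in both tables have all 8 knockout libraries above the WT libraries, and Col18a1 in Ctrl has all 8 below.

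Both treatments could be set side by side at 174 collagen sites tested in each table, though the tables were normalized separately and were not tested against each other. At these sites 21 were called in Ctrl and 26 in Paused, and 13 were called in both with the same sign, 9 higher and 4 lower. These are 61.9% of the Ctrl calls and 50% of the Paused calls, and no site was called in opposite directions. The 9 higher sites were at Col13a1 (3), Col4a2 (3), Col1a1 (2) and Col6a1 (1), and the 4 lower ones at Col18a1 (3) and Col1a2 (1). Over all 208526 intervals matched and tested in this way, 8.19% were called in Ctrl, 14.9% in Paused and 4.91% in both with the same sign, which is 60% of their Ctrl calls and 33% of their Paused calls. The collagen counts include Col13a1, Col4a1 and Col4a2, whose values led to the choice of genes, so nothing is read from them. Without those 3 genes, 12 of 93 sites were called in Ctrl, 10 in Paused and 7 in both with the same sign. The WT value was larger in the Paused table at 131 of the 174 (separately normalized). That share was not computed over all matched intervals, so nothing is read from this count.

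Of 75 other matrix genes tested, 6 windows were higher and 7 lower in Ctrl and 9 higher and 17 lower in Paused, against backgrounds of 3.35% and 5.03%, and 6.61% and 20.6%. With recomputed size factors the split was 1 higher and 21 lower in Ctrl and 1 and 30 in Paused, and with library totals it was 12 and 9, and 15 and 15. Over all gene windows, size factors called 4910 of 20262 in Ctrl and 10477 of 20123 in Paused. Of those calls, 9.35% and 4.79% were higher. Library totals called 2634 and 5519 gene windows, of which 47.9% and 41.1% were higher. Of 34 other collagen genes, 3 were higher and 3 lower in Ctrl, and 5 and 8 in Paused. Col5a3, a minor fibrillar chain, went from 1108 ± 53.5 to 1303 ± 37.7 and 1274 ± 76.4 in Ctrl (SD, n = 4, limma adjusted p 0.00256 and 0.0105). Col6a5 went the other way, from 1495 ± 69.7 to 1276 ± 48.3 and 1268 ± 34.7 (0.00225 and 0.00154). Among 9 collagen receptors, 2 were higher and 2 lower in Ctrl, and 2 and 3 in Paused. The receptor kinase gene Ddr1 fell from 2113 ± 78.4 in WT to 1758 ± 41.9 and 1720.4 ± 51.3 in Ctrl (limma adjusted p 0.00013 and 2.17e-05). In Paused it fell from 2575 ± 78.8 to 2069 ± 12.6 and 2043 ± 99.3 (3.18e-07 and 8.26e-08). Its relative Ddr2 rose in Ctrl from 1094 ± 56.0 to 1310.0 ± 84.9 and 1240.2 ± 108 (limma adjusted p 0.00205 and 0.0385). The platelet collagen receptor gene Gp6 rose from a low level, 55.3 ± 10.4 in WT to 73.9 ± 7.10 and 80.0 ± 7.90 in Ctrl (0.0403 and 0.00877).

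Of 21 tested genes for collagen folding and processing, 0 were higher and 1 lower in Ctrl, and 2 and 4 in Paused. Over all gene windows 3.35% were higher and 5.03% lower in Ctrl, and 6.61% and 20.6% in Paused. Fkbp10, a collagen chaperone gene, fell from 1713 ± 77.4 to 1515 ± 103 and 1462 ± 89.8 in Ctrl (SD, n = 4, limma adjusted p 0.0226 and 0.00313). Among 11 basement membrane partners, Nid1, which links laminin to type IV collagen, rose in Ctrl from 723 ± 44.8 to 900.3 ± 33.3 and 831 ± 31.1 (0.000191 and 0.019). Agrn fell there from 1214 ± 42.2 to 1062 ± 42.3 and 1078 ± 48.6 (0.0141 and 0.0315). In Paused the partners Hspg2 and Lamb2 were called lower and 0 higher, where 20.6% of all gene windows were lower.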

How the data were processed

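Accessibility was measured by ATAC-seq in 24 libraries of E14 mouse embryonic stem cells. Per the submitters' processing notes, the build was mm10 and the tools named were FastQC, Trim Galore, Bowtie2 2.4.1, MACS3 3.0.3 and DiffBind 3.16.0. The deposited tables hold a normalized signal per interval and library, 1 table for Ctrl and 1 for Paused, normalized separately. From the values, this signal is reads divided by 1 factor per library, and whole reads were recovered from its steps (100% of values, within the rounding of the printed decimals). In 4 of the 24 libraries, the factor is so close to 1 that steps cannot be separated well from rounding, and recovery there is less certain. Per the file headers, the authors also deposited log2 mean levels and log2 fold changes, with a p-value and FDR, for their own comparison of knockout with WT, which are not used here.

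Intervals with a value of at least 10 in at least 4 libraries were tested with limma 3.58.1 (R 4.3.3) on log2(value + 1), with the 12 libraries of a table in 1 fit and Benjamini-Hochberg adjustment over all tested features. As a table holds more knockout than WT libraries, a low interval passes the value filter more easily when it is high in the knockouts. A call is an adjusted p under 0.05. A call in both lines needs the same sign in each knockout line against WT. Gene windows are sums over intervals in the gene body (RefSeq GRCm38.p6) extended by 20 kb, tested for all protein-coding genes. Intervals of the 2 tables were matched 1 to 1 by an overlap of at least 50% of each. edgeR 4.0.16 and DESeq2 1.42.0 were run on recovered reads as alternatives. Test scripts were tested on simulated data.

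Named intervals were those at a start, the largest change called in both lines and the strongest of a window. The Col13a1 and Col4a2 intervals behind the choice of genes were added, with their counterparts. Other counterparts, sites called in both tables and sites named for a count were chosen after their values were seen, as were the named matrix genes. The members and lists were chosen with earlier results of these data known.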

Additional observations from a re-analysis of the deposited data

Results flagged for a closer look

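In 11 of 186 groups of 4 libraries, 1 library stood far from the other libraries of its line (Dixon's criterion), where chance gives about 9.3. At the Col4a2 site in Paused, WT replicate 3 held 12.95 normalized reads against 1.32 to 3.22 in the other WT libraries, and its Col4a2 window was 1907.5 against 1799 to 1814.6. At the same site in Ctrl, Smad2_KO2 replicate 1 held 28.06 against 11.69 to 14.09, the library whose removal ended that call. At the Col13a1 interval with the largest gain in Paused (chr10:61846778-61846978), WT replicate 1 held 1.08 against 6.47 to 7.51.

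Smad2_KO1 replicate 2 was low in Ctrl at the upstream Col18a1 start (202.53 against 235.09 to 237.96) and over the Col1a1 window (977.7 against 1057 to 1071.2). Smad2_KO2 replicate 3 was low at Col12a1 in Ctrl (175.29 against 216.37 to 218.45) and over the Col6a1 window in Paused (538.8 against 594.3 to 601.4). Smad2_KO2 replicate 2 was low over the Col5a1 window in Ctrl (624.3 against 655.4 to 657.2). The strongest Col1a1 interval held 250.59 in Smad2_KO2 replicate 4 in Ctrl against 205.69 to 209.43. The Col18a1 window held 3462.4 in Smad2_KO1 replicate 1 in Paused against 3269.6 to 3285.5. No collagen window or matched interval was called in opposite directions between the tables.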

How the results depend on the processing

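No fold change of a called collagen interval changed sign in the alternatives run, while 9 gene window values did in at least 1. Of 27 collagen intervals called in both lines in Ctrl, DESeq2 on recovered reads called 11 and no other collagen interval (19 for Smad2_KO1 and 19 for Smad2_KO2 against WT). With the 8 knockout libraries as 1 group 65 were called in Ctrl and 71 in Paused, and with knockout libraries of a number averaged, 46 and 43. These settings do not ask for a call in each line, and no share over all intervals was computed for them. Their counts also include the genes that led to the choice, so nothing is read from them. In Paused 29 were called for Smad2_KO2 with no extension of gene bodies. The cause of these differences was not tested.

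Collagen windows called in Ctrl numbered 3 with recomputed size factors, 3 with TMM factors, 2 with library totals, 2 with loess offsets, 3 with 1 knockout group, 2 with averaged knockouts and 2 with a 50 kb extension. In Paused they numbered 5 with size factors, 5 with 1 knockout group and 1 with 50 kb. Other matrix windows called in Ctrl numbered 22, 22, 21, 22, 26 and 21 under size factors, TMM, totals, loess, 1 knockout group and averaged knockouts. Over all 20262 gene windows in Ctrl, size factors called 4910, TMM 4545, totals 2634 and loess 2795. In Paused, size factors called 10477 of 20123. No such share was computed for 1 knockout group, averaged knockouts or 50 kb.

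Leaving out 1 library gave 23 to 43 and 29 to 48 calls for Smad2_KO1 and Smad2_KO2 against WT in Ctrl, and 31 to 54 and 27 to 45 in Paused. Calls in both lines ranged from 15 to 31 in Ctrl and 22 to 35 in Paused, windows from 1 to 2 and 1 to 4, other matrix genes from 3 to 12 and 18 to 30, and calls between lines were 0. In Ctrl the 15 and 23 came without Smad2_KO1 replicate 1. In Paused the 27 came without WT replicate 4, 29 without Smad2_KO2 replicate 2, and 1 window without Smad2_KO1 replicate 3. For other matrix genes in Ctrl the counts were 8 without WT replicate 1, 3 without WT replicate 4, 8 without Smad2_KO2 replicate 1 and 5 without Smad2_KO2 replicate 2. Without Smad2_KO1 replicate 2, 2 collagen windows were called in Ctrl.

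Window fold changes (log2) that changed sign were small. In Ctrl they were Col1a1 with loess (0.002), chromosome medians (0.015) and 1 library left out (-0.057 to 0.011), Col5a1 with totals (0.004), loess (0.005) and 1 library left out (-0.043 to 0.046), Col6a1 with 1 library left out (-0.068 to 0.037), and Col12a1 with size factors (-0.066), TMM (-0.061) and 1 library left out (-0.004). In Paused they were Col1a1 with totals (0.004), loess (0.04) and chromosome medians (0.026), Col5a1 with totals (0.034), loess (0.043) and 1 library left out (-0.071 to 0.062), Col4a1 with size factors (-0.041) and TMM (-0.029), Col12a1 with totals (0.012), loess (0.004) and 1 library left out (-0.047 to 0.009), and Col13a1 with size factors (-0.008).

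Replicate numbers are not stated to pair libraries, and the mean correlation of deviations between same-numbered libraries was 0.0085 to 0.105. With the replicate block, calls were 45, 44 and 0 between lines, 29 in both lines, 1 window and 13 other matrix genes in Ctrl, and 54, 50, 0, 34, 4 and 29 in Paused. The Col13a1 window in Paused passed with the block (adjusted p 0.0421, limma). Low intervals rest on few reads, which limits their precision.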

Other observations

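At Col5a1, a site in the upstream flank (chr2:27874711-27874911), 11614 bases before the start, was noticed after its values were seen and had too few reads to be tested. In Ctrl it held 10.7, 3.58, 24.1 and 35.6 normalized reads in WT, 5.13, 3.08, 3.75 and 2.31 in Smad2_KO1 and 6.01, 4.55, 6.37 and 4.03 in Smad2_KO2. The overlapping interval in Paused held 11.9, 8.59, 30.2 and 38.4 in WT, 7.60, 9.06, 2.59 and 7.95 in Smad2_KO1 and 6.99, 6.75, 4.49 and 6.56 in Smad2_KO2. In each table WT replicates 3 and 4 held the highest values, and WT replicate 2 overlapped the knockouts.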
